A study of Danio rerio with 4 samples.

Results

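The genes described here are 35 cell cycle genes of the zebrafish, chosen by symbol from the feature lists of 4 single-cell RNA libraries, which name 24438 gene symbols. All 35 symbols were found. By role, 13 of them act at the G1/S transition or in DNA replication (pcna, mcm2, mcm3, mcm4, mcm5, mcm6, mcm7, rrm1, rrm2, tyms, ccne1, ccne2, cdc6; the S-phase genes), and 18 act in G2 and mitosis or mark dividing cells (mki67, top2a, cdk1, ccnb1, ccna2, ccnb2, birc5a, aurkb, aurka, plk1, cdc20, ube2c, kif11, kif23, cenpf, nusap1, tpx2, bub1; the mitosis genes). The remaining 4 (ccnd1, tubb2b, hmgb2a, stmn1a) have known uses outside the cycle too. The question was which cells of the ventricle held transcripts of S phase or mitosis after amputation, and how many cells carried them.

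Each library came from dissociated heart ventricles of AB strain fish, sorted for the pdgfrb:EGFP reporter, and all fish carried pdgfrb:EGFP and cxcl12b:Citrine. The mutant library was from pdgfrb-/- fish (um148 allele) aged 6 months that also carried fli1a:DsRed, and the wildtype library from fish of the same age with the same 3 transgenes. The injured library was from fish aged 18 months whose ventricle apex had been amputated 7 days earlier, and the uninjured library from fish of the same age without amputation; neither carried fli1a:DsRed. There was 1 library per group, and the number of fish in each is not given in the sources used here. No difference below therefore has a replicate check or a test across animals, and every interval covers counting error only. The younger and the older pair differ in age and transgenes as well as in treatment, so values are compared only within a pair.

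A dividing cell copies its DNA in S phase and separates the copies in mitosis. Replication needs the MCM helicase, the PCNA clamp and a supply of deoxynucleotides, and mitosis needs cyclin B with Cdk1, spindle motors and the machinery that destroys cyclins at exit. In the zebrafish heart, cardiomyocytes, fibroblasts and epicardial cells are known to enter the cycle after part of the ventricle is cut away, while most cells of an uninjured adult heart rest.

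After filtering, 1119 mutant, 947 wildtype, 1388 injured and 2003 uninjured cells remained, with median depths of 2160, 1729, 3651 and 3313 unique molecular identifiers (UMIs, each standing for 1 captured transcript). Cells were grouped without any of the 35 genes and named "-like" from marker genes. Cardiomyocyte-like cells made up 47.8% of injured and 52.9% of uninjured cells, and 83.0% of mutant and 73.9% of wildtype cells, although the sort was for pdgfrb:EGFP. EGFP was found in 0.754% of injured and 0.850% of uninjured cardiomyocyte-like cells, against 94.4% and 94.7% of mural-like cells (pericytes and smooth muscle), which the reporter is known to mark. Most cells with cardiomyocyte transcripts thus go against the sort label, and how they came into the libraries was not tested. The filters and the marking of doublets left out 385 mutant, 391 wildtype, 1739 injured and 3823 uninjured barcodes, nearly all for a mitochondrial share over 25%. There were 9 cell barcodes found in more than 1 library, and 1 of them belongs to the injured cell with most cell cycle UMIs, described below.

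Transcripts of these genes were sparse in all 4 libraries, and the younger pair was sequenced to fewer UMIs per cell. A UMI was found for 30 of the 31 S-phase and mitosis genes in the injured library and for 28 in the uninjured library, against 12 in the mutant and 21 in the wildtype library. ccne2, a cyclin E gene, had 0 UMIs in all 4 libraries, which for each library allows up to 3. ccnb2 and bub1 had 2 UMIs each, all in the injured library.

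Of the S-phase genes, pcna, the sliding clamp of DNA polymerase, had 45 UMIs in the mutant and 57 in the wildtype library, and 403 in the injured and 309 in the uninjured library. rrm2, the regulated subunit of ribonucleotide reductase, had 23 UMIs in the mutant, 27 in the wildtype, 146 in the injured and 37 in the uninjured library. The MCM helicase subunit mcm6 had 0 UMIs in the mutant, 3 in the wildtype, 80 in the injured and 28 in the uninjured library. Each of these genes was higher in the injured than in the uninjured library, also in counts per 1000000 UMIs (CPM). The other MCM genes ran from 14 (mcm7) to 60 UMIs (mcm5) in the injured and from 10 (mcm7) to 36 (mcm4) in the uninjured library, and did not pass 14 in the mutant or 6 in the wildtype library. rrm1, the large reductase subunit, had 9 UMIs in the mutant, 10 in the wildtype, 45 in the injured and 28 in the uninjured library. tyms, thymidylate synthase, had 0 in the mutant, 1 in the wildtype, 23 in the injured and 7 in the uninjured library. Low counts were also found for cdc6, which loads the helicase at origins, with 0 mutant, 1 wildtype, 17 injured and 12 uninjured UMIs, while ccne1, another cyclin E gene, had 0 mutant, 2 wildtype, 12 injured and 2 uninjured UMIs.

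The mitosis genes had few UMIs outside the injured library. mki67, the Ki-67 proliferation marker, had 0 UMIs in the mutant, 2 in the wildtype, 59 in the injured and 6 in the uninjured library. cdk1, the mitotic kinase, had 1 mutant, 1 wildtype, 59 injured and 10 uninjured UMIs, and its partner ccnb1 (cyclin B) had 0 mutant, 0 wildtype, 59 injured and 2 uninjured UMIs. kif23, a motor of the midbody in cell division, was closer between the older libraries, with 1 mutant, 2 wildtype, 66 injured and 57 uninjured UMIs. ube2c, the ubiquitin-conjugating enzyme of mitotic exit, had 0 mutant, 3 wildtype, 77 injured and 6 uninjured UMIs, and cdc20, an activator of the ubiquitin ligase it serves, had 3 mutant, 0 wildtype, 42 injured and 2 uninjured UMIs. The remaining 10 with at least 20 UMIs in all (top2a, ccna2, birc5a, aurkb, aurka, plk1, kif11, cenpf, nusap1, tpx2) ran from 18 to 44 UMIs in the injured and from 2 to 15 in the uninjured library, with at most 2 in the mutant and 3 in the wildtype library.

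**Figure D1:**
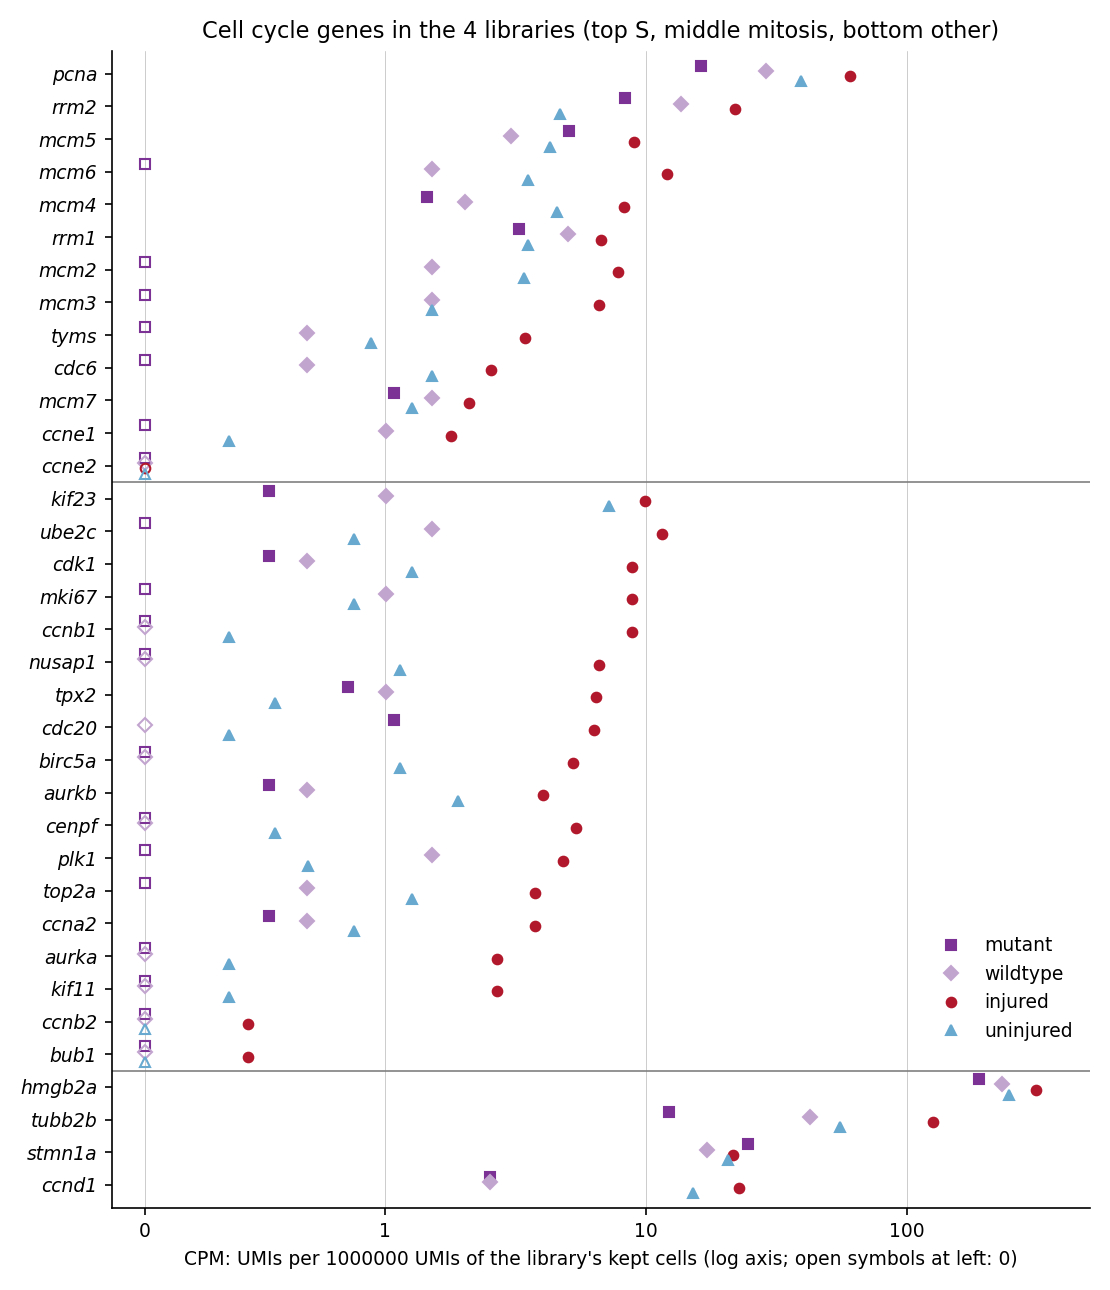
CPM over the kept cells of each library (log axis, open symbols at 0) for the 35 genes, S-phase genes above, mitosis genes in the middle and the 4 others below. The injured library (red circles) lies right of the uninjured one (blue triangles) for every mitosis gene with at least 20 UMIs, least for kif23 with 66 and 57 UMIs, and 12 of the 18 mitosis genes are at 0 in the mutant library.

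The 4 genes with wider uses were found in all 4 libraries. hmgb2a, a chromatin protein, had 522 UMIs in the mutant, 457 in the wildtype, 2076 in the injured and 1946 in the uninjured library. tubb2b, a beta tubulin, had 34 mutant, 84 wildtype, 836 injured and 439 uninjured UMIs, and stmn1a, a microtubule destabiliser, had 68 mutant, 34 wildtype, 144 injured and 163 uninjured UMIs. hmgb2a was found in 731 injured and 976 uninjured cells, against 321 injured and 331 uninjured cells with a UMI of any S-phase or mitosis gene. ccnd1, the cyclin D that drives G1, had 7 mutant, 5 wildtype, 152 injured and 120 uninjured UMIs.

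In CPM, 26 of the 31 genes with at least 20 UMIs over the older pair were higher in the injured than in the uninjured library, past 1.5-fold with a 95% counting interval above 1, and 0 were lower. Over all 11298 genes measured the same way, 22.8% were higher and 3.83% lower. The median log2 ratio was 1.96 over the 31 genes and 0.31 over all genes. With TMM scaling, which takes 0.32 off every log2 ratio, 21 of the 31 were higher. The median log2 ratio over all genes was then -0.01. All shares of all genes given here and below are without TMM scaling, so counts with TMM scaling have no such share beside them. The genes past the rule were 9 of 11 S-phase genes, 15 of 16 mitosis genes and 2 of the 4 others. The 4 genes with under 20 UMIs were ccne1, ccne2, ccnb2 and bub1. Cell type markers moved with this difference: 12 of 12 fibroblast markers were higher (46373 injured and 18318 uninjured UMIs, median log2 1.71), as were 8 of 8 measured erythrocyte markers (86375 injured and 31939 uninjured UMIs, median log2 1.995), 7 of 10 mural markers and 4 of 6 thrombocyte markers. Their part in the library totals was not tested.

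Among the S-phase genes with at least 20 UMIs over the older pair, the largest log2 ratio was that of rrm2, 21.9 CPM in the injured and 4.68 CPM in the uninjured library, a log2 ratio of 2.23 (interval 1.70 to 2.79). pcna stood at 60.4 CPM in the injured and 39.1 CPM in the uninjured library, a log2 ratio of 0.63 (0.41 to 0.85) that was 0.31 with TMM scaling and then no longer past 1.5-fold. mcm7 and cdc6 did not pass the rule (log2 0.73 and 0.75). Among the mitosis genes, ccnb1 had a log2 ratio of 5.13 (3.21 to 8.21), and mki67 had a log2 ratio of 3.54 (2.34 to 5.05). kif23 did not pass, at 0.46 (-0.08 to 0.99). Of the others, tubb2b was higher by 1.17 (1.01 to 1.34) and ccnd1 by 0.59, while hmgb2a (0.34) and stmn1a (0.07) did not pass.

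These library totals rested on few cells. The 59 mki67 UMIs of the injured library lay in 10 cells, and 2 of those held 47. The 59 cdk1 UMIs lay in 8 cells with 41 in 1 of them, the 59 ccnb1 UMIs in 7 cells with 53 in 2, and the 32 plk1 UMIs (Polo-like kinase) in 4 cells with 30 in 2. pcna was spread more widely, over 190 injured and 217 uninjured cells. The MCM genes were less spread, and their top injured cell held 21 of 52 mcm2, 16 of 44 mcm3 and 8 of 55 mcm4 UMIs. For the rest it held 23 of 60 mcm5, 29 of 80 mcm6 and 3 of 14 mcm7 UMIs. Of all 951 injured S-phase UMIs, 1 erythrocyte-like cell held 157 (16.5%). Leaving out the cell with most of these transcripts from each library left 16 of 27 measured genes higher. Of the genes past the rule before, pcna, mcm2, mcm4, mcm5, aurkb and ccnd1 no longer passed. top2a, ccna2, aurka and kif11 fell below 20 UMIs and were no longer measured. Leaving out every cell whose barcode occurs in another library left 15 of 28, and no share of all genes is given for that setting. There cdk1 was lost as well, and top2a was measured but did not pass.

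The mitosis genes summed to 669 UMIs in the injured and 146 in the uninjured library, 100.2 CPM in the injured and 18.5 CPM in the uninjured library. Of the 669, 1 erythrocyte-like cell held 253, 1 cell grouped as T and NK lymphocyte-like held 212 and 1 fibroblast-like cell held 52, so that 3 cells held 77.3%. The erythrocyte-like cell had 70514 UMIs, the most of any cell in its library, with 14194 UMIs of erythrocyte markers, 17 of the 18 mitosis genes and 11 of the 13 S-phase genes. Its barcode also occurs in the uninjured library, on an erythrocyte-like cell of 690 UMIs, and 232 of that cell's 244 genes were also found in the injured cell. The lymphocyte-like cell had 23230 UMIs and 17 mitosis genes, with 20 UMIs of T and NK markers and 22 of macrophage markers. The fibroblast-like cell had 49187 UMIs and 13 mitosis genes, and beside 1176 UMIs of fibroblast markers it held 430 of the mural list, 226 of the thrombocyte list and 83 of the cardiomyocyte list. Whether these droplets held more than 1 cell was not tested. Without the top cell of each library the summed mitosis genes stood at a log2 ratio of 2.27 (1.96 to 2.60), against 2.44 (2.18 to 2.71) with it. The injured cells with 212 and 52 mitosis UMIs were still in that sum, so the ratio still rested on few cells. In the uninjured library the 3 top cells held 40.4%. The intervals treat UMIs as independent, which UMIs of 1 cell are not, and are therefore too narrow.

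Cells were then called by holding at least 3 different S-phase genes or at least 3 different mitosis genes. At least 3 S-phase genes were held by 34 of 1388 injured cells (2.45%, exact Clopper-Pearson 95% interval 1.70 to 3.41) and by 14 of 2003 uninjured cells (0.699%, 0.383 to 1.17). At least 3 mitosis genes were held by 8 injured cells (0.576%, 0.249 to 1.13) and 4 uninjured cells (0.200%, 0.0544 to 0.511). With all UMIs, the intervals of the S-phase shares do not overlap and those of the mitosis shares do. Both kinds were held by 4 injured and 3 uninjured cells. The injured S-phase cells were deeper than the rest, with a median of 8400.5 UMIs against 3601.5 in the other injured cells. Depth raises the chance of a call. With every cell thinned to 1000 UMIs, the injured and the uninjured S-phase share were both lower, and their intervals overlap. The part of free RNA in the calls was not tested.

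**Figure D2:**
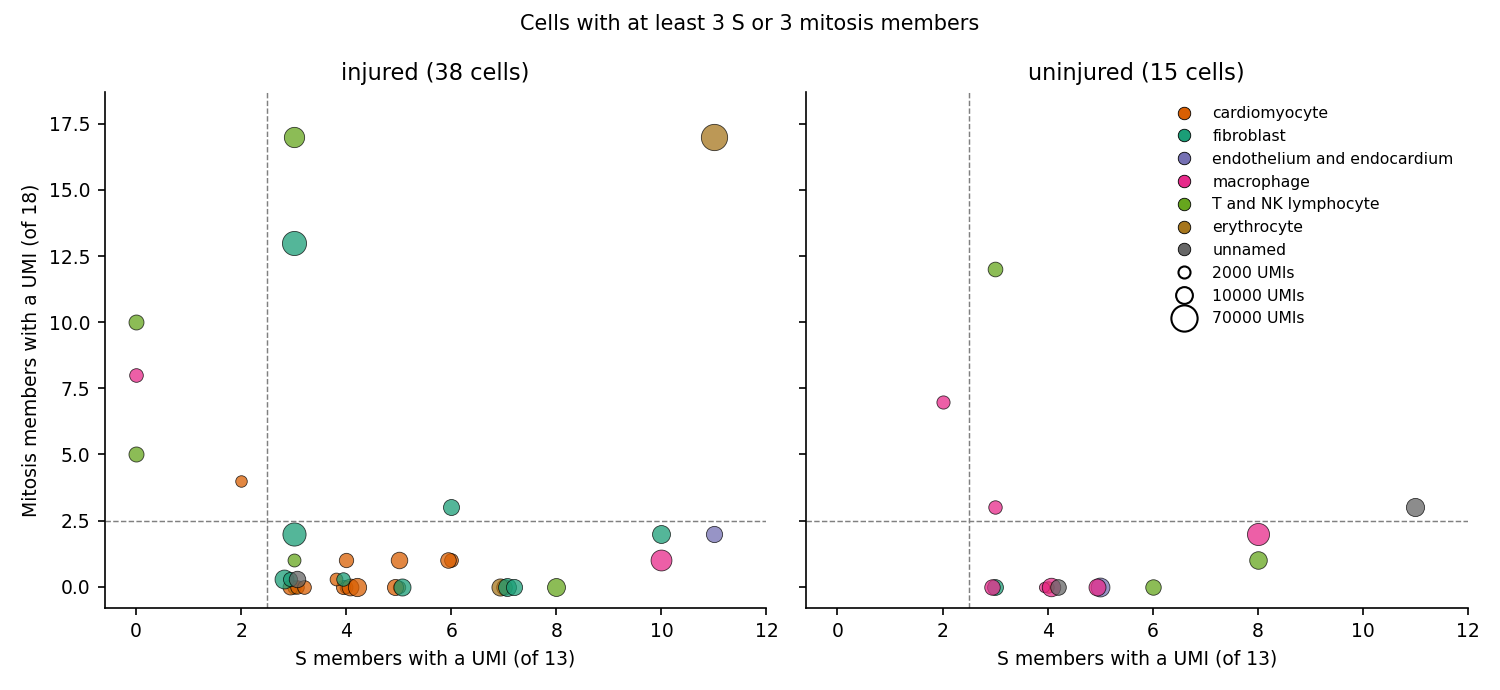
Each point is 1 cell that held at least 3 S-phase or at least 3 mitosis genes, in the injured (left, 38 cells) and the uninjured library (right, 15 cells), placed by how many S-phase genes (x axis, of 13) and mitosis genes (y axis, of 18) had a UMI; colour gives the class, area grows with the cell's UMIs, points at the same place are moved slightly apart, and dashed lines mark the limit of 3. The cardiomyocyte-like cells (orange) lie along the bottom of the injured panel, with at most 1 mitosis gene except for 1 cell.

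In cardiomyocyte-like cells, S-phase transcripts were more frequent in the injured than in the uninjured library. At least 3 S-phase genes were held by 15 of 663 injured cardiomyocyte-like cells (2.26%, 1.27 to 3.70) and by 1 of 1059 uninjured ones (0.0944%, 0.00239 to 0.525). The median depth of the class was 2986 UMIs in the injured and 2703 in the uninjured library. With every cell thinned to 1000 UMIs the counts were 4 of 589 injured (0.679%, 0.185 to 1.73) and 1 of 912 uninjured cells, and those intervals overlap.

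The 15 cells held 3 to 7 S-phase genes each, in 2397 to 14694 UMIs. pcna was found in 14 of them, rrm2 in 10, rrm1 in 9 and tyms in 6, and 11 of the 15 held no mitosis gene. Their cardiomyocyte markers stood at 100728 CPM, against 124395 in the other injured cells of the class. Markers of fibroblasts, epicardium, endothelium, macrophages, lymphocytes and thrombocytes came to between 0 and 2 UMIs per list over all 15 cells, while the mural list came to 75 and the erythrocyte list to 15 UMIs. None of the 15 held a UMI of EGFP or pdgfrb. Genes of DNA replication outside the 13 (a list of 39, among them the GINS complex, replication factor C and polymerase subunits) stood at 1.6 UMIs per cell after thinning to 1000 UMIs, against 0.103 in the other injured cells of the class.

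By cluster, 10 of the 15 lay in a cluster led by hspb9, ankrd1a and nppal, where they were 4.78% of 209 injured cells against 0 of 306 uninjured cells. A further 4 lay among 235 injured cells of a cluster led by actc1c, where 1 of 290 uninjured cells was called, and 1 lay in a small cluster led by scn5lab. ankrd1a encodes a stress-responsive sarcomere protein. The cluster led by hspb9 was also the deepest of the class in the injured library, with a median of 4583 UMIs (4392.5 in its uninjured cells). The injured cells of clusters of the class without a call had medians of 1110.5 to 2430 UMIs. The part of depth in this placement was not tested.

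Mitosis transcripts were rare in the same class. The mitosis genes summed to 18 UMIs in injured and 8 in uninjured cardiomyocyte-like cells. A single injured cell of 1604 UMIs held at least 3 of them (cdk1, aurkb, ube2c and tpx2), with 120 UMIs of cardiomyocyte markers. No uninjured cell of the class did. A limit of 3 cells allows a share of up to 0.283%, and an exact interval would reach higher.

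The summed S-phase genes in cardiomyocyte-like cells came to 236 UMIs in the injured and 67 in the uninjured library, 94.7 CPM of the class in the injured and 18.4 CPM in the uninjured library, a log2 ratio of 2.36 (1.96 to 2.77). The 3 top cells had 16.5% of the sum in the injured library and 13.4% in the uninjured library, and without the top cell of each library the ratio was 2.39. Without pcna it was 2.94. Of 5 genes with at least 20 UMIs in the class, 4 were past the rule and none was lower (18.9% of all genes of the class were higher and 3.03% lower): pcna with 99 injured and 41 uninjured UMIs, rrm2 with 62 injured and 13 uninjured, tubb2b with 41 injured and 6 uninjured, and stmn1a with 20 injured and 1 uninjured UMIs. hmgb2a, with 491 injured and 642 uninjured UMIs, did not pass (log2 0.16). Outside the called cells 109 S-phase UMIs remained in 648 injured cells, and 62 in 1058 uninjured cells.

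Fibroblast-like cells, which carry most of the reporter outside the mural-like cells of the older pair, also held S-phase transcripts. At least 3 S-phase genes were held by 10 of 219 injured cells (4.57%, 2.21 to 8.24) and 1 of 308 uninjured cells (0.325%, 0.00822 to 1.80). Of the 10 injured cells, 8 held EGFP, 7 held pdgfrb and 9 held pcna, and 2 also held at least 3 mitosis genes. Over all 219 injured cells of the class, EGFP was found in 78.1% and pdgfrb in 60.3%. The 10 called cells were deep, with a median of 12104 UMIs. The class was deeper in the injured library (median 6275 UMIs) than in the uninjured one (4454), and after thinning to 1000 UMIs the counts were 3 of 213 injured and 0 of 284 uninjured cells. Of the 10 cells, 1 also held 100 UMIs of macrophage and 158 of erythrocyte markers.

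Taken with the epicardium-like cells, none of which was called in either library, the summed S-phase genes stood at 290 injured and 111 uninjured UMIs, 159.9 CPM in injured and 64.4 CPM in uninjured cells (log2 1.31, 0.99 to 1.64). The 3 top cells had 46.6% of the sum in the injured library and 9.01% in the uninjured library. Outside the called cells 84 S-phase UMIs remained in 233 injured cells, and 108 in 334 uninjured cells. The higher sum thus lay largely in the called cells. Of 9 genes measured in this joint class, 7 were higher past the rule and 0 lower, where 25.6% of all genes were higher and 4.07% lower: pcna, mcm6, rrm2, ube2c, ccnd1, tubb2b and hmgb2a. tubb2b had 368 injured and 106 uninjured UMIs (log2 1.72), rrm2 had 54 injured and 6 uninjured (log2 3.10), and ccnd1 had 48 injured and 18 uninjured UMIs (log2 1.34). stmn1a stood at 106 injured and 131 uninjured UMIs (log2 -0.38) and did not pass, and 42 of the 131 lay in 1 uninjured cell. The injured cell of 49187 UMIs held 31 of the 54 rrm2 UMIs, 131 of the 531 hmgb2a UMIs and all 22 ube2c UMIs. Without the top cell of each library in this class, 5 of 8 measured genes were higher: hmgb2a no longer passed, ube2c had no UMI left, and rrm2 stood at 23 injured and 6 uninjured UMIs (log2 1.89). Of all genes of the class, 24.5% were then higher and 3.99% lower. pcna and hmgb2a did not pass with TMM scaling, where stmn1a passed as lower. The mitosis genes summed to 65 UMIs in injured and 4 in uninjured cells, and 52 of the 65 lay in the cell of 49187 UMIs.

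**Figure D3:**
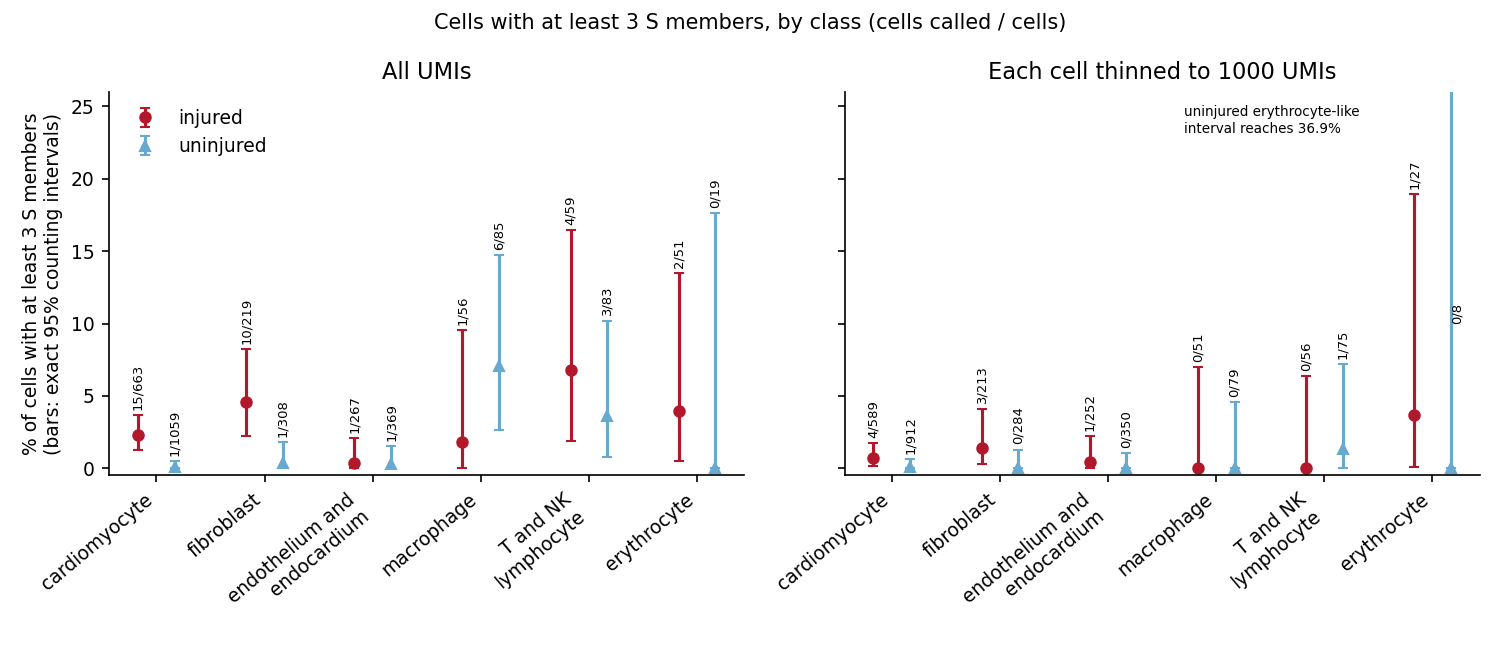
Percent of cells with at least 3 S-phase genes in 6 classes (y axis), injured (red) left of uninjured (blue), with all UMIs (left) and with each cell thinned to 1000 UMIs (right); bars are exact 95% counting intervals and the labels give cells called over cells. With all UMIs the cardiomyocyte-like and fibroblast-like intervals do not overlap between libraries, and after thinning they do.

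In endothelium-like and endocardium-like cells the result depended on 1 cell and on pcna. At least 3 S-phase genes were held by 1 of 267 injured and 1 of 369 uninjured cells. The S-phase genes summed to 133 injured and 117 uninjured UMIs (log2 0.29, -0.08 to 0.66), and 1 injured cell held 49 of the 133; without the top cell of each library the log2 ratio was -0.28. Without pcna, the other S-phase genes had 55 injured and 23 uninjured UMIs (log2 1.36, 0.63 to 2.13), and 0.57 (-0.37 to 1.53) without the top cells. None of 5 measured genes passed the rule in this class, where 8.53% of all genes were higher and 4.76% lower. This class held most kif23: 55 of 66 injured UMIs (83.3%, in 43 cells) and 53 of 57 uninjured UMIs (93.0%, in 44 cells). Over the whole class the other 17 mitosis genes summed to 7 injured and 5 uninjured UMIs. ccnd1 was frequent there too, with 63 injured and 82 uninjured UMIs.

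Macrophage-like cells held S-phase transcripts without injury. At least 3 S-phase genes were held by 1 of 56 injured cells (1.79%, 0.0452 to 9.55) and 6 of 85 uninjured cells (7.06%, 2.63 to 14.7), and the intervals overlap. Summed, the S-phase genes had 40 injured and 93 uninjured UMIs, 99.9 CPM in injured and 158 CPM in uninjured cells (log2 -0.66, -1.24 to -0.12), and 1 injured cell held 25 of the 40 and 1 uninjured cell 36 of the 93. Without those cells the log2 ratio was -1.36 (-2.29 to -0.52), and without pcna -0.52 (-1.23 to 0.15). Markers of other cell types in the class moved with it: the cardiomyocyte list had 86 injured and 1253 uninjured UMIs (4 of 4 measured genes lower, median log2 -3.54), and the neutrophil list had 97 injured and 303 uninjured UMIs (3 of 6 lower). Their part in the difference was not tested. None of 4 measured genes was higher in the injured library, where 6.45% of all genes were higher and 6.36% lower. After thinning to 1000 UMIs no macrophage-like cell of either library was called for S-phase genes (0 of 51 injured and 0 of 79 uninjured cells). With all UMIs, at least 3 mitosis genes were held by 1 of 56 injured and 2 of 85 uninjured cells. The mitosis genes summed to 19 injured and 17 uninjured UMIs (log2 0.71, -0.31 to 1.75). Of these, 1 injured cell held 16 of the 19 and 1 uninjured cell 10 of the 17. Without those 2 cells the log2 ratio was -0.66 (-3.25 to 1.47).

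Cells grouped as T and NK lymphocyte-like had the highest mitosis level of the 5 classes with at least 50 cells in each older library. The mitosis genes stood at 898 CPM in injured and 193 CPM in uninjured cells, from 250 injured and 50 uninjured UMIs. A single injured cell held 212 of the 250 and a single uninjured cell 43 of the 50. The log2 ratio of the sums was 2.22 (1.77 to 2.69) with these cells and 2.43 (1.25 to 3.84) without them. Of the injured UMIs then left, 29 lay in 1 further cell. At least 3 mitosis genes were held by 3 of 59 injured and 1 of 83 uninjured cells, and at least 3 S-phase genes by 4 injured (6.78%, 1.88 to 16.5) and 3 uninjured cells (3.61%, 0.752 to 10.2). Of 9 genes measured, 7 were past the rule as higher and 0 as lower (14.7% of all genes were higher and 11.7% lower): mki67, ccnb1, plk1, ube2c, cenpf, nusap1 and tubb2b. These were not independent results, since the same injured cell held 20 of 20 plk1 UMIs, 33 of 33 ube2c, 22 of 23 mki67, 26 of 28 ccnb1, 23 of 26 cenpf and 18 of 23 nusap1 UMIs. Without the top cell of each library in this class only 3 genes were measured, and tubb2b was the 1 that was higher (114 injured and 43 uninjured UMIs). Of all genes of the class, 14.1% were then higher and 11.5% lower. The cluster was mixed: of the 6 injured cells called, 2 held 0 UMIs of T and NK markers. The cell with 29 mitosis UMIs was 1 of these. The cell with 212 held 20 UMIs of T and NK markers and 22 of macrophage markers. Most mitosis UMIs of the injured class thus lay in cells that the markers do not clearly show to be lymphocytes.

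Among the smaller classes, 2 of 51 injured erythrocyte-like cells were called for S-phase genes (3.92%, 0.478 to 13.5), against 0 of 19 uninjured ones. The 2 were the cell of 70514 UMIs and a cell of 11025 UMIs that also held 867 UMIs of cardiomyocyte markers. The design had named erythrocyte-like cells as the class that should lack both kinds of transcripts. Their injured S-phase share was nevertheless above that of cardiomyocyte-like cells (15 of 663), with a wide interval. The background of the calls in other classes was not tested. No mural-like, epicardium-like or thrombocyte-like cell of the older pair was called. For mural-like cells, the target of the sort, that was 0 of 18 injured and 0 of 19 uninjured cells, too few to detect a share of a few percent. Unnamed cells gave 1 of 11 injured and 2 of 23 uninjured cells. An unnamed uninjured cell of 14382 UMIs held 58 of the 542 uninjured S-phase UMIs (10.7%), the most of any cell in that library. It held 11 S-phase genes and 3 mitosis genes.

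**Figure D4:**
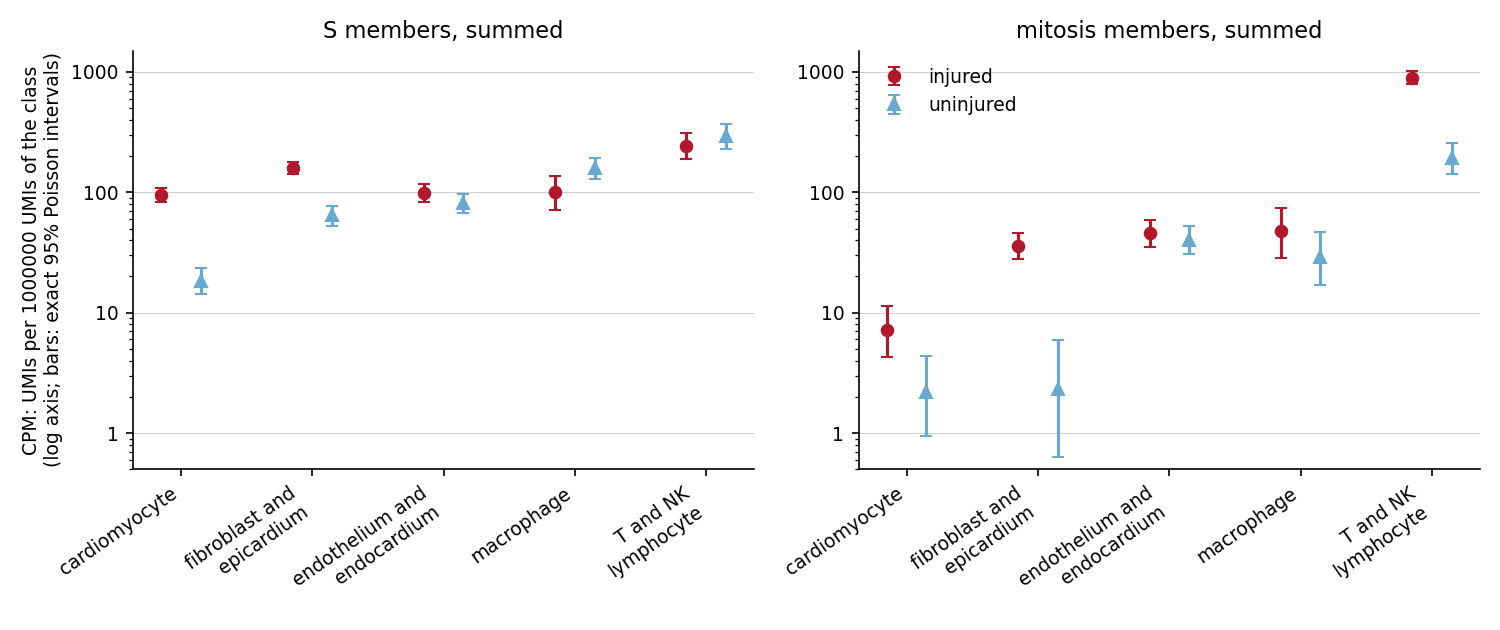
Summed S-phase genes (left) and summed mitosis genes (right) in CPM of each class (log axis), injured (red) left of uninjured (blue), with exact 95% Poisson intervals. The S-phase intervals lie apart in cardiomyocyte-like (94.7 CPM injured, 18.4 CPM uninjured) and in fibroblast-like with epicardium-like cells (159.9 CPM injured, 64.4 CPM uninjured). In fibroblast-like with epicardium-like cells, 3 injured cells held 46.6% of the S-phase UMIs. In lymphocyte-like cells, 1 cell in each library held most of the mitosis UMIs.

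The genes differed in how far their transcripts lay in cells that carried others of the set. In the injured library, mitosis genes with at least 20 UMIs had a median of 96.6% of their UMIs in cells holding at least 3 others of the 31 S-phase and mitosis genes, and kif23 had 12.1%. For S-phase genes the median was 78.8%, highest for mcm3 (95.5%) and lowest for pcna (45.7%). ccnd1, tubb2b, hmgb2a and stmn1a had 25.7% to 42.4%, in cells that together held 7.07% of all injured UMIs. In the uninjured library pcna had 16.2%, kif23 0% and the 4 others 3.33% to 15.3%, in cells with 1.95% of all UMIs. These shares describe the same cells and libraries and depend on depth. For the injured mitosis genes they were largely fixed in advance. In that library 3 cells held 77.3% of the mitosis UMIs, and these cells brought many of the genes to 20 UMIs. In the uninjured library kif23 was the only mitosis gene with at least 20 UMIs. The shares are thus not a trait of each gene on its own.

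**Figure D5:**
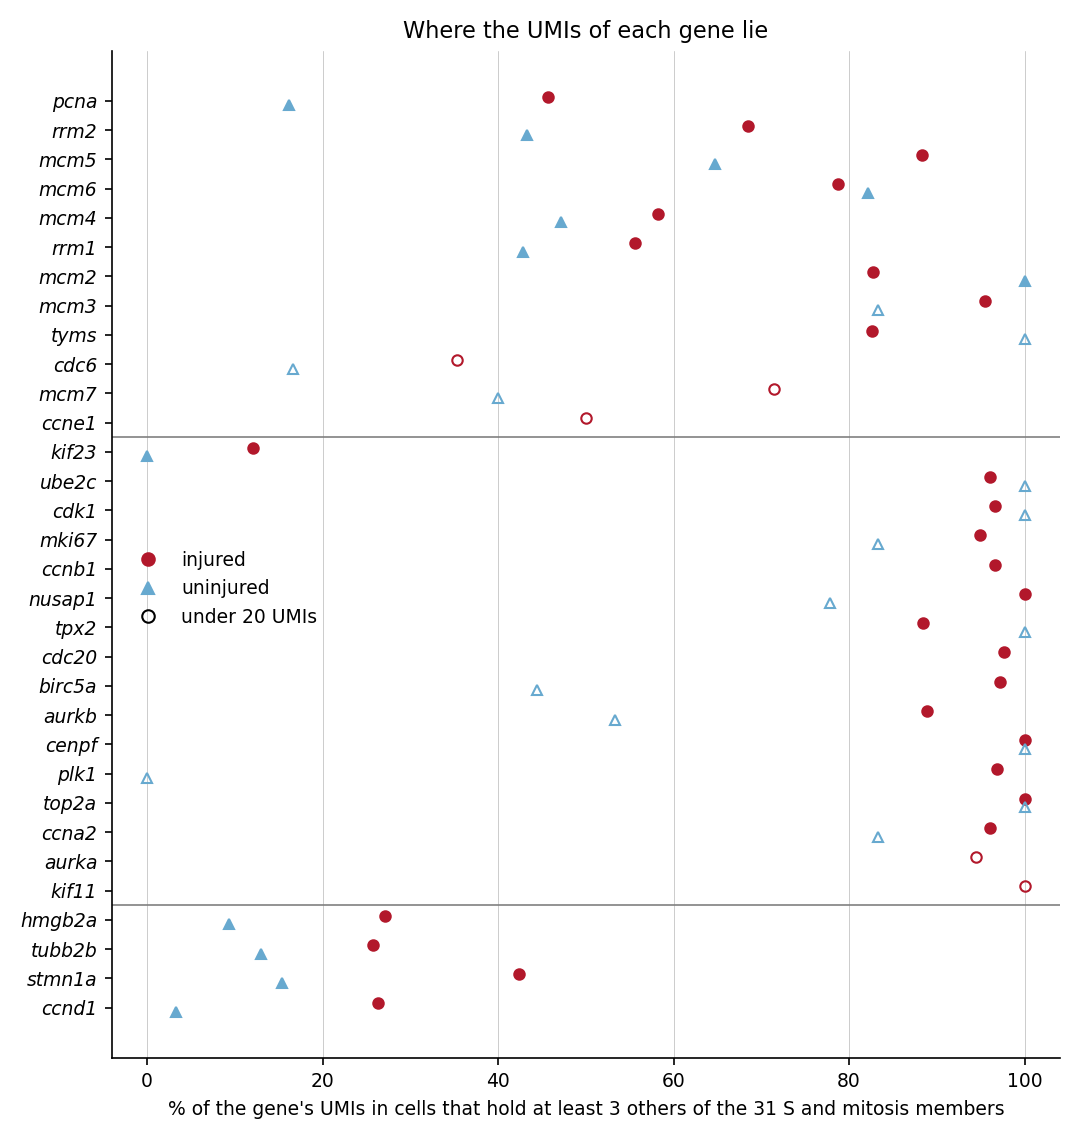
Percent of each gene's UMIs (x axis) that lay in cells holding at least 3 others of the 31 S-phase and mitosis genes, injured (red circles) and uninjured (blue triangles); open symbols have under 20 UMIs, and genes with under 10 injured UMIs or points with under 3 UMIs are left out. The mitosis genes of the injured library gather near 100% except kif23 (12.1%), and the 4 genes at the bottom stay under 43%. In that library 3 cells held 77.3% of the mitosis UMIs.

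Further genes of the same pathways were looked at as lists. Of 29 measured DNA replication genes outside the set, 11 were higher and 0 lower in the injured library (median log2 0.59, or 7 higher and 1 lower with TMM scaling). Of 23 measured mitosis genes outside the set 16 were higher and 0 lower (median log2 1.36, or 13 and 0 with TMM scaling). Without TMM scaling, 22.8% of all genes were higher and 3.83% lower. The 3 most abundant replication genes did not pass: rpa2 with 124 injured and 108 uninjured UMIs and rpa3 with 108 injured and 103 uninjured, subunits of the single-strand binding protein RPA, and the clamp loader subunit rfc5 with 83 injured and 120 uninjured UMIs. Of the further mitosis genes, the lamin gene lmnb2 was higher at 273 injured and 142 uninjured UMIs (log2 1.19), and hmgb2b (809 injured, 682 uninjured) and the lamin B receptor lbr (190 injured, 203 uninjured) did not pass. Of 24 measured G1 regulators and inhibitors 9 were higher and 2 lower, or 6 higher and 4 lower with TMM scaling, for which no share of all genes is given. mycb, a Myc gene (9182 injured and 9956 uninjured UMIs), the antiproliferative gene btg2 (7339 injured, 9041 uninjured) and ccng1, a cyclin G gene (5413 injured, 7527 uninjured), did not pass.

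The younger pair held few of these transcripts. Of the 6 genes with at least 20 UMIs, 2 were lower in the mutant than in the wildtype library, where 16.0% of all genes were lower and 5.26% higher: pcna, with 45 mutant and 57 wildtype UMIs (log2 -0.82, -1.42 to -0.23), and tubb2b, with 34 mutant and 84 wildtype UMIs (-1.79, -2.41 to -1.20). None passed as higher, but with TMM scaling stmn1a, with 68 mutant and 34 wildtype UMIs, did (log2 0.70). The S-phase genes summed to 98 mutant and 120 wildtype UMIs (log2 -0.78, -1.18 to -0.38) and the mitosis genes to 9 mutant and 16 wildtype UMIs. Mural-like cells, of which the mutant library had 0 and the wildtype library 92, held 27 of the 120 wildtype S-phase UMIs, 8 of the 16 wildtype mitosis UMIs, 12 of the 57 wildtype pcna UMIs and 30 of the 84 wildtype tubb2b UMIs. Without mural-like cells pcna had 45 mutant and 45 wildtype UMIs and did not pass (log2 -0.56, -1.19 to 0.07), tubb2b passed as lower (log2 -1.23), and the summed S-phase genes stood at a log2 ratio of -0.49 (-0.91 to -0.06).

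In cardiomyocyte-like cells, the largest class, the S-phase genes had 73 UMIs in the mutant and 39 in the wildtype library (log2 0.37, -0.21 to 0.97), and none of 3 measured genes was past the rule (11.0% of all genes were higher and 7.38% lower). In fibroblast-like cells they had 17 mutant and 52 wildtype UMIs (log2 -2.24, -3.13 to -1.43), and 36 of the 52 lay in 3 wildtype cells. With epicardium-like cells added, pcna (11 mutant and 27 wildtype UMIs) and tubb2b (22 mutant and 36 wildtype) were the 2 of 4 measured genes that were lower, where 16.9% of all genes were lower and 4.25% higher.

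No mutant cell held at least 3 S-phase genes, and 5 of 947 wildtype cells did (0.528%, 0.172 to 1.23). A limit of 3 cells allows a mutant share of up to 0.268%, and an exact interval would reach higher. The 5 were 3 fibroblast-like cells, 1 cardiomyocyte-like cell and 1 mural-like cell. The mural-like cell held 3 S-phase genes and 6 mitosis genes in 2595 UMIs, with 7 UMIs of EGFP and 2 of pdgfrb, and was the only cell of the younger pair with at least 3 mitosis genes. The mutant library held no mural-like cell, against 92 in the wildtype library, so the class cannot be compared. Of further genes, 0 of 10 replication genes and 0 of 5 mitosis genes were higher in the mutant, with 0 and 1 lower, and of 13 G1 regulators 0 were higher and 7 lower (5 with TMM scaling). Without TMM scaling, 16.0% of all genes were lower and 5.26% higher. The 7 include mycb (log2 -1.20) and btg2 (-1.11).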

How the data were processed

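The authors deposited, for each of the 4 libraries, a matrix of counts (UMIs per gene and cell barcode), written by Cell Ranger 4.0.0 per the file headers; the build GRCz11 and Seurat are named in the submitters' processing notes, without the step in which Seurat served. The kit was 10x 3' v3.1, per the labels' protocols. The deposited counts were used raw. Of 11795 barcodes (the smallest with 500 UMIs), 5470 had at least 200 genes and at most 25% mitochondrial UMIs. Scrublet marked 13 of these (0.238%), too few for the caller to have worked, so doublets that remain were not estimated; 5457 cells were kept, with 2772269 mutant, 1983524 wildtype, 6675514 injured and 7912205 uninjured UMIs. Counts of 518 symbols with several identifiers were summed, rrm2 and ube2c (2 each) among them.

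Cells were clustered with scanpy 1.11.5 on 1974 variable genes without cell cycle genes (30 components, 15 neighbours, Leiden resolution 1.0). Clusters were named where at least 3 markers of a list were detected, the list's mean scaled level was at least 0.5 and 75% of cells held at least 2 UMIs of it; those last limits were set after a first output had been seen, and classes would differ under others. The 35 genes, the gene lists and the markers were chosen with earlier results of these data known. Ratios are of summed UMIs in CPM, with conditional binomial intervals; sums have exact Poisson and shares exact Clopper-Pearson intervals, all at 95%. A gene was measured with at least 20 UMIs over both libraries and passed past 1.5-fold with an interval excluding 1. A count of 0 is said to allow up to 3, a limit tighter than the exact intervals. Each gene with at least 20 UMIs over the 4 libraries has its values given, for some MCM and mitosis genes only as a range over several genes. Of each pathway list the 3 genes with most UMIs are named. The scripts were tested on simulated data. Alternatives were TMM scaling (edgeR 4.0.16), thinning, other filters, limits and resolutions, doublets kept, and leaving out the top cell of each library; leaving out shared barcodes, the top cell of each class or mural-like cells, and calls and sums without pcna or kif23, were added after seeing the data. Sequences and a promoter motif search were not used here. Versions of the other tools were numpy 2.4.6, scipy 1.17.1, pandas 2.3.3, igraph 0.11.9 and leidenalg 0.10.2.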

Additional observations from a re-analysis of the deposited data

Results flagged for a closer look

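S-phase genes also appeared in the barcodes left out by the filters or as marked doublets (4 injured and 7 uninjured), which no comparison above uses. The doublets were not looked at apart from the rest. The 1739 injured barcodes left out held 68 S-phase UMIs and the 3823 uninjured ones 34, which is 26.7 CPM in the injured and 6.99 CPM in the uninjured library (log2 1.93, 1.32 to 2.57). These barcodes had a median mitochondrial share of 97.2% in the injured and 96.9% in the uninjured library, and 2 of them in each library held at least 3 S-phase genes.

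The summed S-phase genes of macrophage-like cells stood lower in the injured library (log2 -0.66; 40 injured and 93 uninjured UMIs), opposite to cardiomyocyte-like and fibroblast-like cells. The difference between classes was not tested. A single cell held 25 of the 40 injured and another 36 of the 93 uninjured UMIs, and without both the log2 ratio was -1.36 (-2.29 to -0.52).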

How the results depend on the processing

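No result past its rule or interval turned its direction under the alternatives run. Of the alternative values of the main results, 235 stayed within the interval or within 1.5 times the count, and 59 moved. Of those of single genes 303 stayed and 15 moved, none of them changing sign past the rule. A value that stayed may still have lost its call. The summed mitosis genes, mutant over wildtype, had a log2 ratio of -1.31 with a wholly negative interval (-2.67 to -0.05). That interval reached positive values without the top cells, without kif23 or without mural-like cells. The interval of the S-phase sum of macrophage-like cells did so without pcna. Limits: each group is 1 library, so libraries and treatments cannot be told apart, and most values rest on under 40 called cells. Low depth lowers the chance of a call but does not bar it. The shallowest called cells had 725 UMIs in the wildtype and 793 UMIs in the uninjured library.

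Shares of cells with S-phase genes moved most with the number of genes asked for and with depth. With at least 2 genes they were 4.76% of injured and 1.55% of uninjured cells, 4.22% of injured cardiomyocyte-like cells and 1.79% of uninjured fibroblast-like and epicardium-like cells; with at least 4, 1.66% of injured cells. Thinned to 1000 UMIs they were 0.720% of injured and 0.113% of uninjured cells, 0.679% of injured cardiomyocyte-like and 1.27% of injured fibroblast-like and epicardium-like cells, and 0% of wildtype cells, where the mitosis share was 0% as well. Thinned to 500 UMIs they were 0.216% of injured and 0% of uninjured cells, 0% of cardiomyocyte-like cells in both libraries, 0.412% of injured and 0% of uninjured fibroblast-like and epicardium-like cells and 0% of wildtype cells; the mitosis share was then 0.144% of injured, 0.0499% of uninjured and 0% of wildtype cells. The uninjured fibroblast-like and epicardium-like share, 1 cell, was 0% with at most 10% mitochondrial UMIs, with doublets kept, with at least 4 genes, after thinning, without pcna and kif23, and at resolution 2.0.

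Genes higher in the injured library, 26 over all cells, were 16 without the top cell of each library, 15 without shared barcodes, 15 with at least 50 UMIs and 1 of 6 measured after thinning to 500 UMIs. In cardiomyocyte-like cells (4) they were 10 with no minimum, 2 with at least 50 UMIs and 0 after thinning to 500. In fibroblast-like and epicardium-like cells (7) they were 12 with no minimum and 0 after thinning, and 1 gene was lower with at most 10% mitochondrial UMIs, with doublets kept and with TMM scaling. In the mutant, 1 gene was higher, both over all cells and in the fibroblast-like with epicardium-like class, without the top cells and with TMM scaling; the 2 lower genes became 1 over all cells past 2-fold, and 1 with at least 50 UMIs and 0 after thinning in fibroblast-like and epicardium-like cells. Leaving out the top cell of each library within a class, and the sums without pcna or kif23, were added after seeing the data. Without the class's top cells, 2 log2 ratios of sums whose intervals held 0 changed sign, to -0.28 for S-phase genes of endothelium-like and endocardium-like cells and to -0.66 for mitosis genes of macrophage-like cells; the S-phase sum of macrophage-like cells was then -1.36 and the mitosis sum 1.99 in fibroblast-like cells, or 2.08 with epicardium-like cells added. Without pcna the S-phase log2 ratios were 1.48 over all cells, 2.94 in cardiomyocyte-like, 2.16 in fibroblast-like, 2.15 in fibroblast-like and epicardium-like and 1.36 in endothelium-like and endocardium-like cells; without kif23 the mitosis ratio over all cells was 3.01. In the mutant without mural-like cells 1 gene was lower, where 10.4% of all genes were lower and 6.74% higher. Shares of all genes under the other settings are not given, except without the top cells, above. Fewer genes are measured under higher minimums and after thinning; elsewhere the cause was not tested. No paired analysis was possible because each group has 1 library.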
